A study of Mus musculus with 12 samples.

Results

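The Polycomb complex genes described here are 10 protein-coding mouse genes: Ezh2, Ezh1, Eed, Suz12, Jarid2 and Mtf2 of Polycomb repressive complex 2 (PRC2), and Rnf2, Ring1, Kdm2b and Pcgf6 of Polycomb repressive complex 1 (PRC1). Their regions were all rows of the merged list of accessible regions that overlapped the gene body or 20 kb to either side on mm10. This gave 177 of 170548 regions, or 0.104% of the list. The study used ATAC-seq, which marks open chromatin by where a transposase can insert adapters, in 2 mouse embryonic stem (ES) cell lines grown in serum with 2i and LIF. In ZHBTc4 cells a doxycycline-repressed (Tet-Off) transgene is the source of OCT4, and in 2TS22C cells such a transgene is the source of SOX2. ZHBTc4 cells were untreated (OCT4 ON) or given 1 µg/ml doxycycline for 24 hr (OCT4 OFF), and 2TS22C cells were untreated (SOX2 ON) or given it for 26 hr or 40 hr (SOX2 OFF), with 2 libraries in each of 6 groups. All these cells thus depend on a transgene for one factor, and the study describes the libraries of a group as biological duplicates, paired by the date of the experiment.

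The list analysed here gives each region's chromosome, start and end, after peaks of all experiments in both lines had been merged. It holds no height, read count or value for any library. A region therefore says that a peak was called there in at least 1 library, OCT4 or SOX2 present or depleted. The paper also used published ATAC-seq data of ZHBTc4 cells grown in serum and LIF only. It does not state whether peaks from those data entered the merge, so some regions may come from libraries outside the groups described above. No comparison of doxycycline-treated with untreated cells could be made, the depth is unknown, and the counts and widths below carry no replicate error and no test. Regions were called proximal when their centre lay within 1 kb of any annotated transcript start site (TSS) and distal otherwise. The start sites of 8 of 8 ES cell markers (Pou5f1, Sox2, Nanog, Esrrb, Zfp42, Klf4, Tdgf1 and Dppa5a) lay in a region. Of 8 markers of other cell types, those of Cdx2, Elf5, Gata4 and Cd3e lay in a region, and those of Alb, Ins2, Myh6 and Sox17 did not. Over all protein-coding genes the share with such a region was 63.1%. The list also pools depleted with untreated cells, so these counts are not a test of the cell type.

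Polycomb proteins keep developmental genes silent. PRC2 places methyl groups on lysine 27 of histone H3 through EZH2 or EZH1, and PRC1 attaches ubiquitin to histone H2A through RNF2 (RING1B) or RING1. In ES cells both complexes gather at CpG islands, stretches of DNA rich in unmethylated CpG, and KDM2B is the subunit known to bring a variant PRC1 to such DNA.

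The sequences below are those at which short words known for transcription factor families were found in the members' regions, and 1 CpG-dense promoter. They are from the GRCm38 assembly and read 5′ to 3′. The E2F words searched were TTTCCCGC and TTTGGCGC, on both strands. E2F factors are known for driving genes of the cell cycle. Among the 177 regions, 4 held such a word (2.26%, beside 1.57% of the list), and these 4 were the start-site regions of Ezh2, Eed, Suz12 and Mtf2. Capitals mark the word or its reverse complement, each line runs in the direction of transcription, and matches inside an annotated exon are shown with 30 bases only.
Ezh2, chr6:47595009-47595038, minus strand: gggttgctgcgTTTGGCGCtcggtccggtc
Eed, chr7:89980775-89980804, minus strand: tcgagagggcgGCGGGAAAaccgcccgccc
Suz12, chr11:79992827-79992954, plus strand: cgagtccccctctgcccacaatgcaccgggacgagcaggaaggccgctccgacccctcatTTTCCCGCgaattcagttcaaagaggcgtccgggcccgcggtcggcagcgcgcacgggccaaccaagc
Mtf2, chr5:108065710-108065739, plus strand: accgctagtccGCGGGAAAccaaaatggcg

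The octamer word ATGCAAAT, the core of sites bound by OCT4 and other POU factors, was found in 4 member regions, all of them distal. This was 2.26% of the member regions, beside 3.72% of the list. Among distal regions it was 3.01%, beside 3.85%. The 4 regions lay in the Ezh1, Eed, Suz12 and Mtf2 neighbourhoods. The lines below run in the direction that reads ATGCAAAT, in capitals.
Ezh1, chr11:101191653-101191682, plus strand: atgcacgtcccATGCAAATctctaagaggc
Eed, chr7:89997804-89997871, plus strand: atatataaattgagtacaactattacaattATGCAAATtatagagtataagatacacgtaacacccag
Suz12, chr11:79976932-79976999, plus strand: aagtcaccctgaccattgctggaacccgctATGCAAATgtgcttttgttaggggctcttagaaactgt
Mtf2, chr5:108076922-108076989, minus strand: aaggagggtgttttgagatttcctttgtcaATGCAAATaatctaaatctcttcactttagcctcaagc

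A composite OCT4::SOX2 element was searched as CATTGT, 1 free base and ATGCAAAT, on both strands, with up to 2 mismatches. It was found in 1 of the 177 regions, a distal region upstream of Suz12, against 1.04% of all regions in the list. The match is in capitals.
Suz12, chr11:79980776-79980879, plus strand: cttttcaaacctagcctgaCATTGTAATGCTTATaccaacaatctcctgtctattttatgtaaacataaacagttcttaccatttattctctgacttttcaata

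The last sequence is the 250 bases before the internal start site of Kdm2b that lay in the gene's widest region. Capitals mark its 37 CpG dinucleotides, and its GC content is 80.4%.
Kdm2b, chr5:122900356-122900605, minus strand: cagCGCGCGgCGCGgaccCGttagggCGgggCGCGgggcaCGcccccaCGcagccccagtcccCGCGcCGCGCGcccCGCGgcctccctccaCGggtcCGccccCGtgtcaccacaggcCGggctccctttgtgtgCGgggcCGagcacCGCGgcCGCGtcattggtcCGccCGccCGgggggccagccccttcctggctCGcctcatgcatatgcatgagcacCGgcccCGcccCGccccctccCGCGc

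Across the 10 neighbourhoods, 133 of the 177 regions were distal and 44 proximal. The distal share was 75.1% (95% Wilson interval 68.3 to 80.9, which covers counting error only), and over the whole list it was 82.7%. The neighbourhoods were drawn around genes and so always hold annotated start sites, whereas the whole list was not. These shares are therefore not like for like. The proximal regions comprised 17 that covered a start site of a member, 10 that covered only start sites of other genes, and 17 that covered none. By position, 108 regions overlapped a member's gene body, 31 lay upstream of it and 38 downstream. Of the distal regions, 68 were centred in an intron of the member and 5 in an exon. The member regions had a median width of 382 bp (quartiles 236 and 661 bp), beside 379 bp (quartiles 223 and 645 bp) for the whole list.

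**Figure D1:**
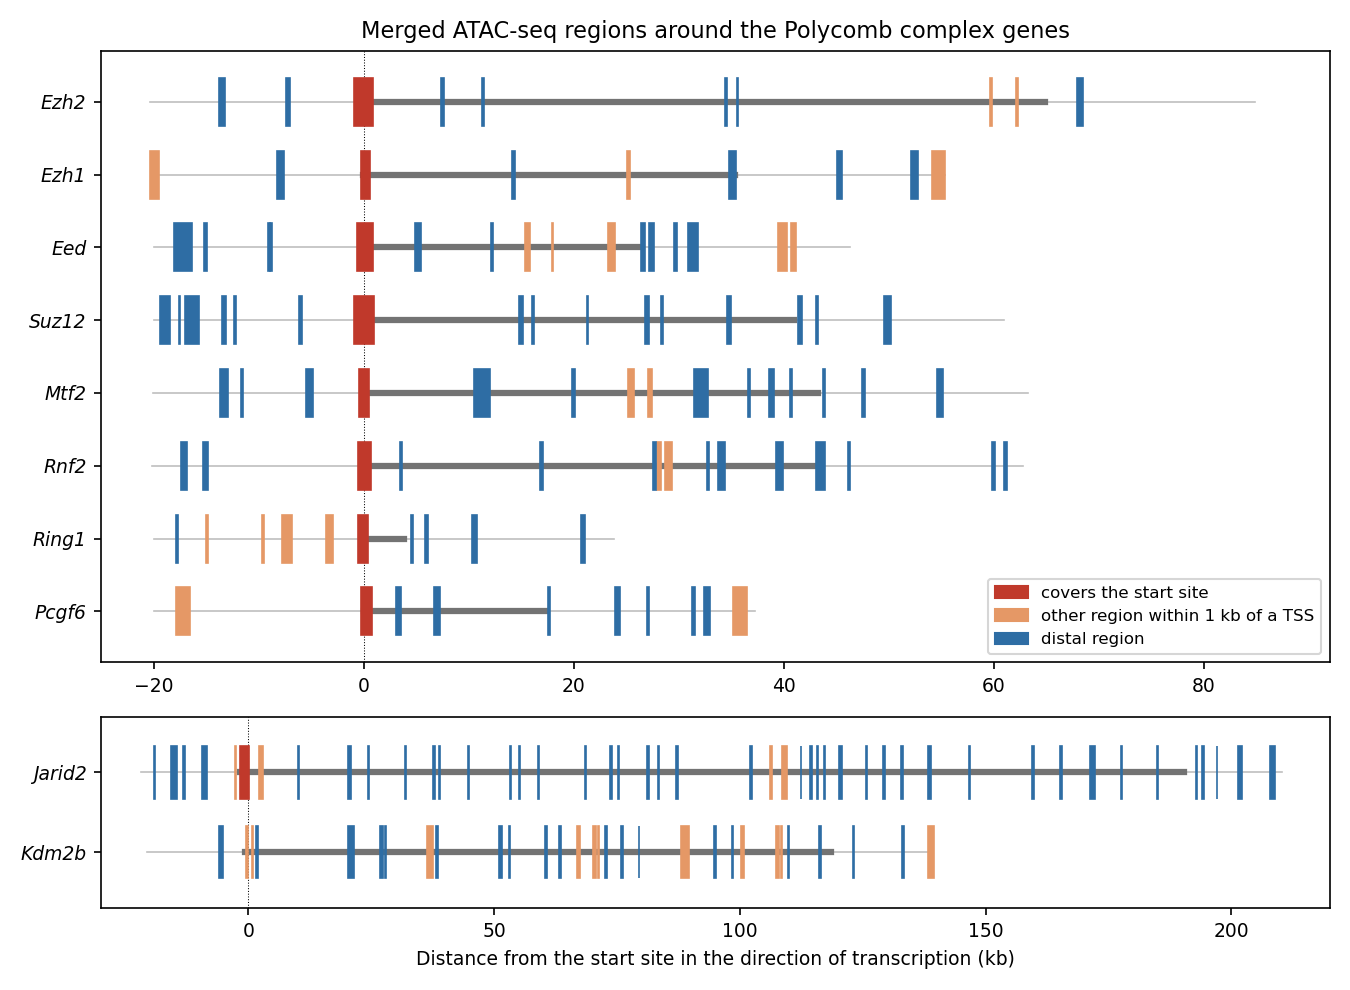
Merged ATAC-seq regions by distance from each gene's start site in the direction of transcription (x axis, kb), 8 genes above and Jarid2 and Kdm2b below on a longer axis. Thick grey lines are gene bodies, thin lines the 20 kb on either side, and boxes are regions to scale, red where they cover the start site. In 9 of 10 genes a red box stands at 0, and Kdm2b has none.

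The start site of each gene was that of its principal coding transcript in GENCODE. A region lay over it in 9 of 10 members, all but Kdm2b, against 63.1% of 21853 protein-coding genes (13782 genes). When any coding transcript could supply the start, all 10 members had one, against 67.4% of genes. Of the 38 distinct coding start sites annotated in the 10 genes, 28 lay in a region. The shares of 63.1% and 67.4% are per gene. A share per start site over all genes was not computed, so this count has no background beside it.

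The 9 start-site regions ran from below the lower quartile of widths over all genes to above the upper quartile. Suz12, Ezh2, Jarid2 and Eed had regions of 1526 to 1857 bp, at percentiles 82.6 to 93.7 of the 13782 start-site regions. The regions of Rnf2, Pcgf6, Ring1, Mtf2 and Ezh1 were 903 to 1282 bp wide, at percentiles 24.7 to 64.7. The widest 4 thus belonged to PRC2 genes, and the other 5 were those of the 3 PRC1 genes with such a region and of Mtf2 and Ezh1. The median over the 9 was 1282 bp, beside 1135 bp (quartiles 906 and 1406 bp) over all genes.

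**Figure D2:**
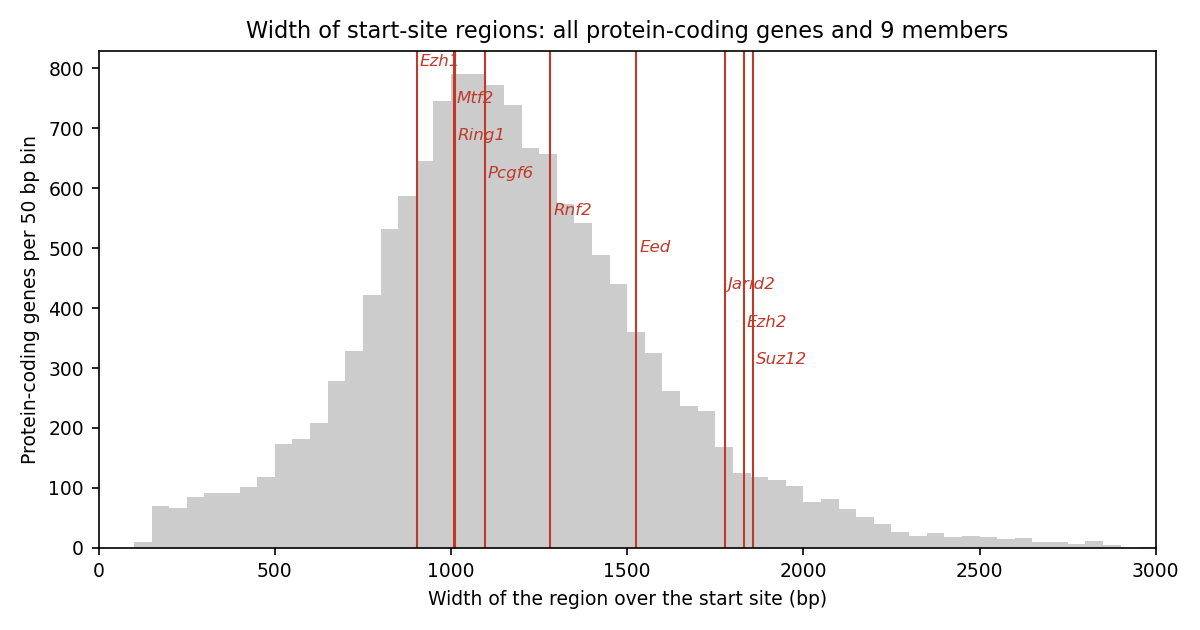
Width of the region over the start site (x axis, bp) for protein-coding genes in bins of 50 bp (grey, y axis number of genes), with red lines at 9 Polycomb complex genes. Ezh1 stands at 903 bp below the all-gene median of 1135 bp, and Jarid2, Ezh2 and Suz12 stand at 1778 to 1857 bp in the right tail. The axis ends at 3000 bp.

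All 9 start-site regions were CpG-rich (at least 200 bp, GC content of at least 50% and CpG observed over expected of at least 0.6), against 73.7% of the start-site regions of all genes. Their GC content ran from 55.6% in Mtf2 to 71.9% in Ring1 (all-gene median 60.4%). Observed over expected CpG ran from 0.784 in Mtf2 to 0.944 in Eed, and all 9 values were above the all-gene median of 0.721. Distal regions of the members had a different composition, with a median GC content of 46.3% and a median CpG ratio of 0.191, beside 48.3% and 0.217 for all distal regions. Of the 133 distal regions 2 were CpG-rich, one 52.43 kb downstream of the Ezh1 start site and one in a Jarid2 intron at 138.5 kb, and the share among all distal regions was 2.49%. Both were picked out after their values were seen.

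**Figure D3:**
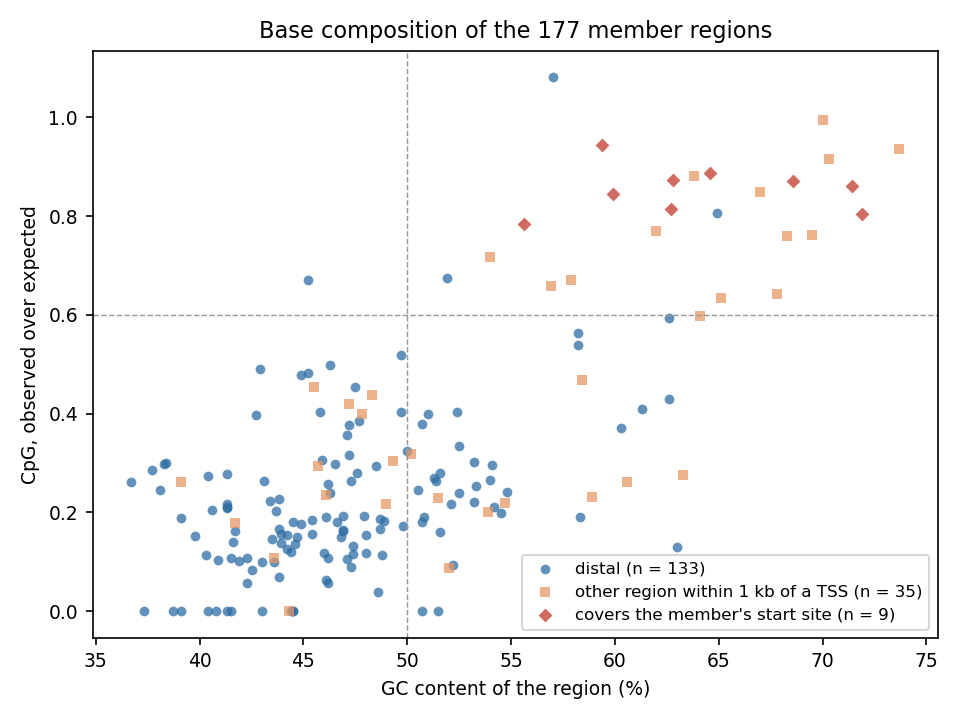
GC content (x axis, %) against observed over expected CpG (y axis) of the 177 member regions, with diamonds for the 9 start-site regions, squares for 35 other proximal regions and circles for 133 distal regions. Dashed lines mark the limits of 50% and 0.6. All diamonds lie above both limits, and 2 circles of at least 200 bp do.

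Most members had more regions for their length than the typical gene. The median gene had 7 regions in its body and 20 kb flanks, or 1.05 per 10 kb (quartiles 0.544 and 1.59). The members had 9 to 46 regions and a median of 1.85 per 10 kb. Density was above the all-gene median in 9 of 10 members, all but Ezh2, and above the upper quartile in 8, all but Ezh2 and Ezh1. The Ezh2 exception held for flanks of 20 kb only. With a reach of 10 kb or of 50 kb, all 10 members were above the all-gene median. Eed (2.41 per 10 kb) and Ring1 (2.28) came first. Suz12, Jarid2, Kdm2b, Rnf2, Mtf2 and Pcgf6 followed between 1.75 and 1.98. The catalytic PRC2 genes were last, Ezh1 at 1.19 and Ezh2 at 0.951. Jarid2, which had the most regions, was close to Suz12 in density (1.98 and 1.97), although Suz12 had 16 regions in a shorter window.

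**Figure D4:**
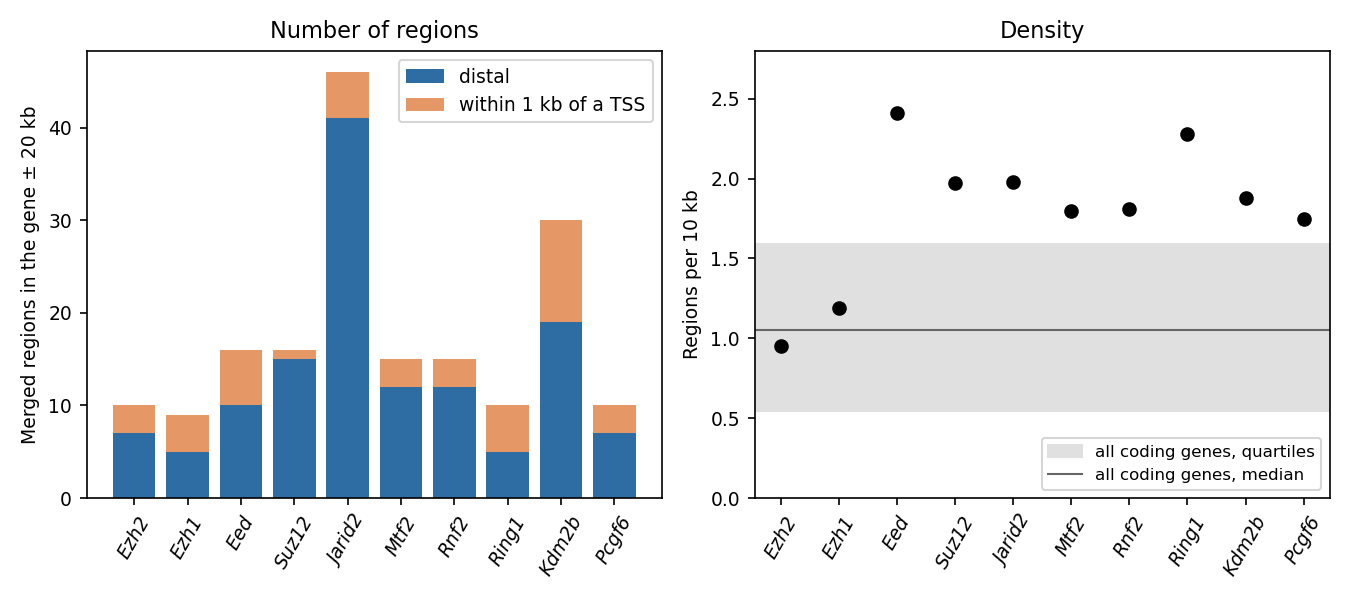
Left, merged regions per gene with 20 kb flanks (y axis, number), split into distal (blue) and within 1 kb of a TSS (orange). Right, regions per 10 kb (y axis) with the median and quartiles of all protein-coding genes in grey. Jarid2 has 46 regions and Ezh1 9, and 8 points lie above the grey band.

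Ezh2 encodes the main PRC2 methyltransferase of dividing cells. The gene (ENSMUSG00000029687.16, chr6:47530139-47595341, minus strand) had 10 regions. The region over its start site was 1831 bp wide and almost symmetric, with 916 bp before the start site and 914 bp after it. The E2F word shown above was centred 6 bp downstream of the start. The nearest distal regions were narrow, 340 bp at 7.195 kb upstream and 270 bp at 7.49 kb downstream in intron 1. The 65.2 kb gene body held 7 regions, or 1.07 per 10 kb, and the flanks had 0.75 per 10 kb. Ezh2 combined a start-site region at percentile 93.4 for width with a density at percentile 45.0 over body and flanks.

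Ezh1 encodes the second methyltransferase, which predominates in cells that do not divide. The gene (ENSMUSG00000006920.14, chr11:101191115-101226463, minus strand) had 9 regions, the fewest of all members. Its start-site region was the narrowest of the 9, at 903 bp, and lay mostly inside the gene, with 268 bp before the start and 634 bp after it. The region with the octamer, 699 bp wide, covered the far end of the gene in exon 21, a UTR exon, with the match 34782 bp from the start site. The nearest distal regions stood 7.885 kb upstream (652 bp) and 14.3 kb downstream (265 bp, intron 6).

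Eed encodes the PRC2 subunit that reads methylated lysine 27. The gene (ENSMUSG00000030619.9, chr7:89954654-89980983, minus strand) had 16 regions, and regions covered 14.2% of its neighbourhood, beside a median of 5.80% over all genes. The start-site region of 1526 bp also held the start of E230029C05Rik, a noncoding transcript of the opposite strand. Accessibility there cannot be assigned to either gene. The E2F word was centred 193 bp inside the gene. The octamer lay in a region of 1714 bp centred 17.23 kb upstream, the widest distal region of any member and at percentile 99.7 of all distal regions for width. This region fell within the E230029C05Rik transcript unit. The nearest distal regions were 183 bp at 8.805 kb upstream and 600 bp at 5.186 kb downstream, in intron 2.

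Suz12 encodes the scaffold that holds the PRC2 core together. The gene (ENSMUSG00000017548.15, chr11:79993106-80034123, plus strand) had 16 regions, of which 15 were distal, and the widest start-site region, 1857 bp (902 bp before the start, 954 bp after). No other region was centred within 2 kb of the start site, which held for all 9 members with a start-site region. The E2F word was centred 215 bp before the start site. Upstream of the gene there were 6 distal regions. The region centred 16.34 kb upstream was 1371 bp wide, at percentile 99.0, and held the octamer together with a SOX word (CATTGTT). Its sequence was 81.0% repeat-masked. The region with the composite match, centred 12.25 kb upstream, was narrow at 158 bp, at percentile 8.40 of distal regions. The nearest distal regions were 315 bp at 6.009 kb upstream and 308 bp at 15.0 kb downstream.

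Jarid2 encodes an accessory PRC2 subunit that binds DNA and helps the complex reach its targets in ES cells. The gene (ENSMUSG00000038518.15, chr13:44729474-44921643, plus strand) is the longest member, 192 kb, and had 46 regions, 41 of them distal. Introns held 30 of the distal regions. Intron 1 alone held 17 regions, intron 2 held 6 and intron 3 held 5. The start-site region of 1778 bp lay almost wholly before the chosen start, 1704 bp against 73 bp after it. Other coding transcripts start further upstream. It covered 6 of the gene's 8 distinct coding start sites. A second region of 899 bp at 109.0 kb, in intron 2, covered the start of a shorter coding transcript of 14 exons.

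The distal regions of Jarid2 were mostly narrow, but 2 in its flanks passed 1000 bp. One of 1276 bp lay 15.17 kb upstream and contained 2 copies of the ETS word CCGGAAGT. The other, of 1058 bp, lay 208.4 kb downstream of the start site, past the end of the gene, within Dtnbp1. The nearest neighbouring regions were proximal to other starts of the gene, 185 bp at 2.563 kb upstream and 836 bp at 2.499 kb downstream. The nearest distal ones were 990 bp at 8.977 kb upstream and 178 bp at 10.09 kb downstream.

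Mtf2 encodes a Polycomb-like protein that binds CpG-rich DNA and recruits PRC2. The gene (ENSMUSG00000029267.17, chr5:108065674-108109004, plus strand) had 15 regions and a start-site region of 1009 bp, with the E2F word centred 17 bp before the start site. This region had the lowest GC content and CpG ratio of the 9. The 12 distal regions of Mtf2 varied in width, down to 154 bp. A region of 1535 bp at 11.3 kb, in intron 1, was at percentile 99.5 for width and held the octamer and an ESRRB word (TCAAGGTCA). A region of 1347 bp at 32.11 kb, in intron 9, was at percentile 98.9 and held none of the words searched. Both were wider than the start-site region. Repeats made up 52.6% of the first and 18.0% of the second. The nearest distal region upstream was 665 bp wide at 5.151 kb.

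Of the 133 distal regions 7 were wider than 1000 bp, beside 4.60% of all distal regions. They lay near Eed, Suz12, Mtf2 (2 regions), Jarid2 (2 regions) and Kdm2b, and none near Ezh2, Ezh1, Rnf2, Ring1 or Pcgf6. The 3 widest, upstream of Eed, in Mtf2 intron 1 and upstream of Suz12, all held the octamer, and the other octamer was in the Ezh1 region of 699 bp. Wide regions hold more words of any kind: the octamer was present in 3.85% of all distal regions and in 9.74% of those of at least 1200 bp. Over all 177 member regions its share was 2.26%, and over the list 3.72%.

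Rnf2 encodes RING1B, the main ubiquitin ligase of PRC1 in ES cells. The gene (ENSMUSG00000026484.13, chr1:151458004-151500955, minus strand) had 15 regions. Its start-site region was 1282 bp wide, the widest among the PRC1 members, with a GC content of 71.4%. It covered 4 of the 5 distinct coding start sites. A cluster of 3 regions lay at 27.73 to 29.01 kb, over exons 6 and 7 and the intron between them, and the widest of these, 703 bp, covered the start of another annotated Rnf2 transcript. SOX words occurred in 5 Rnf2 regions, among them the start-site region. The nearest distal regions were 451 bp at 15.03 kb upstream and 177 bp at 3.568 kb downstream.

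Ring1 encodes the other ubiquitin ligase. The gene (ENSMUSG00000024325.8, chr17:34020792-34024680, minus strand) is 3.89 kb long, the shortest member, and only 1 of its 10 regions overlapped the gene body. That region, 1010 bp over the start site, reached into exon 2 and also covered the starts of the microRNA genes Mir219a-1 and Mir219c and of Gm26940. Of the 10 regions 5 were upstream, where further genes lie close by. The 4 downstream regions were all distal, 198 to 471 bp wide, and 3 of them were at least 89.4% repeat-masked. The density around Ring1 thus counts regions over the start sites of other genes. The nearest distal regions were 237 bp at 17.75 kb upstream and 198 bp at 4.594 kb downstream.

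Pcgf6 encodes the PCGF subunit that defines a variant PRC1 acting with MGA and E2F6 at germ-line genes. The gene (ENSMUSG00000025050.8, chr19:47033617-47050906, minus strand) had 10 regions. Its start-site region of 1095 bp lay mainly inside the gene, 248 bp before the start and 846 bp after it. The nearest distal region, 454 bp at 3.322 kb, was in intron 5. Upstream there was a single region within 20 kb. It was 1342 bp wide, at 17.16 kb, and covered the start site of Taf5.

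Kdm2b encodes the CpG-binding subunit of a variant PRC1 and is known to be made in a long form with a demethylase domain and in a shorter form from an internal start. The gene (ENSMUSG00000029475.17, chr5:122870665-122989823, minus strand) had 30 regions, 19 distal and 11 proximal. Its chosen start site, that of a transcript of 23 exons, lay 29 bp outside the nearest region. That region was 385 bp wide and covered the start of another coding transcript of 23 exons and of the noncoding A930024E05Rik. Regions of 318 bp and 532 bp followed at 0.808 kb and 1.74 kb inside the gene. Further coding starts at 0.724 kb upstream and 0.563 kb and 0.566 kb downstream lay 311, 86 and 83 bp outside any region. Upstream of the gene the only region within 20 kb was distal, 973 bp wide at 5.611 kb.

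The widest regions of Kdm2b stood over internal starts. A region of 1675 bp (chr5:122899445-122901119) in intron 12 of the chosen transcript covered the start of a coding transcript of 12 exons, 88.74 kb inside the gene. Its GC content was 70.3% and its CpG ratio 0.915, and the promoter printed above is part of it. Another, of 1319 bp at 36.98 kb in intron 6, covered the start of a coding transcript of 6 exons. A distal region of 1239 bp at 20.94 kb in intron 4 was at percentile 98.3 for width. In all, 19 distinct start sites from 20 transcripts were annotated, and 6 of them lay in 5 regions.

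**Figure D5:**
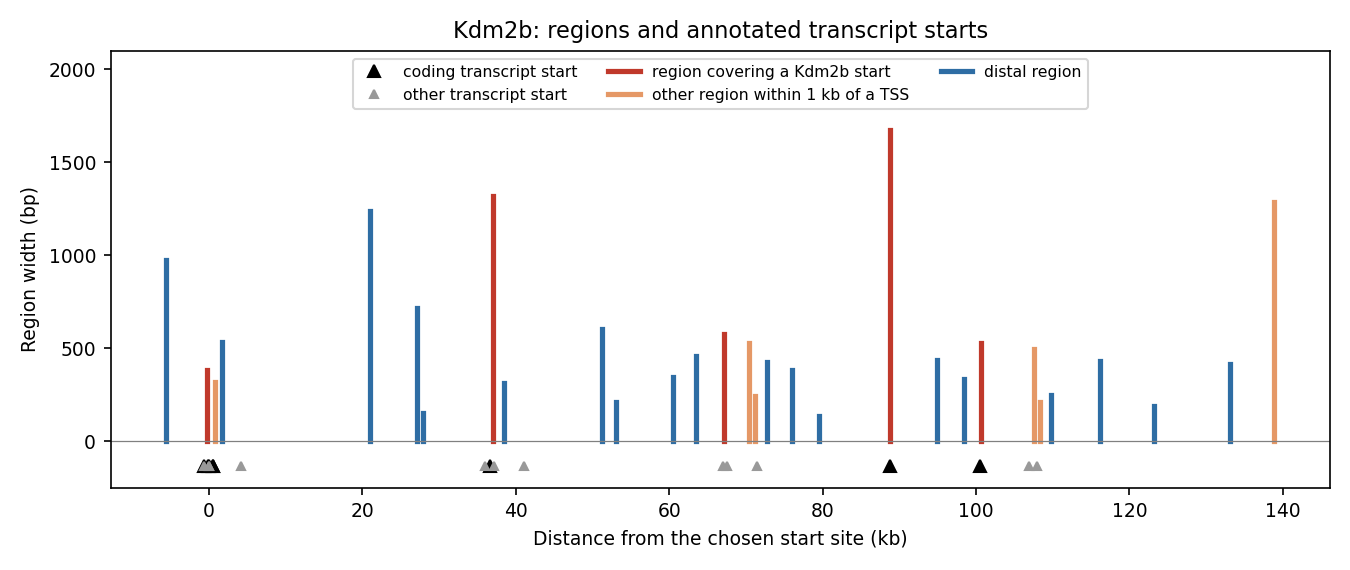
Width (y axis, bp) of the 30 Kdm2b regions against distance from the chosen start site in the direction of transcription (x axis, kb), with triangles below for annotated starts. Red regions cover a Kdm2b start. The red region at 0 is 385 bp wide, and those at 36.98 and 88.82 kb are 1319 and 1675 bp wide.

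The words for other factors were spread differently over the start sites. The E2F words were in 4 of the 9 start-site regions of the members (44.4%), all in PRC2 genes, beside 8.88% of the 12757 distinct start-site regions of all genes and 9.85% of those in the members' width range. Of the 133 distal regions of the members 0 held one, beside 0.837% of all distal regions. The SP/KLF word CCCCGCCCC was in 5 of the 9 (55.6%), namely Jarid2, Mtf2, Rnf2, Ring1 and Pcgf6. Its share was 37.0% over all genes and 40.9% of the start-site regions in the members' width range. Mtf2 was the only member with both an E2F and an SP/KLF word. In the RefSeq promoter windows (GRCm38), which run from 250 bases before to 50 bases after a start, all 10 members were matched by 15 windows. The E2F words were in 2 of these 15, and in 1.56% of all 32851 windows. These matches are descriptions of letters and not of binding.

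Each remaining word was in 0 or 1 of the 9 start-site regions, and its share over the start-site regions of all genes was at most 10.4%. The NRF1 word GCGCATGC was there in Eed (8.15% over all genes), and the SOX word in Rnf2 (6.91%). Those in 0 of the 9 were the octamer (3.25% over all genes), ETS (10.4%), YY1 (AAGATGGCG, 5.64%), ESRRB (1.87%) and STAT (TTCCNGGAA, 3.61%). Over all member regions the SOX word was in 17 (9.60%, beside 8.03% of the list), ESRRB in 5 (2.82% and 2.40%), NRF1 in 5 (2.82% and 1.73%), YY1 in 4 (2.26% and 2.39%), STAT in 3 (1.69% and 1.97%) and ETS in 2 (1.13% and 1.60%). The SOX word was in 7 of the 46 Jarid2 regions and in 5 of the 15 Rnf2 regions.

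A further 46 genes of the Polycomb system were read in the same way, and 42 of them had a region over the start site, against 63.1% of protein-coding genes. The all-gene median width to set beside those below is 1135 bp. The 8 further PRC2 partners, among them Aebp2, Epop, Phf19 and the histone-binding Rbbp4 and Rbbp7, all had one, with a median width of 1558 bp. Among the PCGF, RYBP and YAF2 subunits it was 6 of 7, with a median of 1844 bp. Canonical PRC1 genes (the CBX and PHC families and Scmh1) had 8 of 9 (median 1240 bp), variant PRC1 genes 17 of 18 (1340 bp), and erasers of the marks 3 of 4 (1921 bp). The genes without one were Pcgf2, Phc1, Fbrs and Kdm6b, and only Kdm6b had none at any coding start, where 67.4% of all genes had one. The widest were at Hdac1 (2549 bp), Cbx3 (2475 bp) and Rybp (2202 bp), each wider than the widest start-site region of the 10 members. Over the 42 genes with such a region the median percentile for width was 78.1, beside 64.7 over the 9 members.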

How the data were processed

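ATAC-seq was done on 12 libraries of ZHBTc4 (4) and 2TS22C (8) mouse ES cells. Per the study's methods and the submitters' processing notes, the authors aligned reads to mm10 with STAR 2.6.1c, removed duplicates with Picard, called peaks with MACS 2.1.1.20160309 on paired fragments and merged the peaks of all ATAC-seq experiments in both lines with BEDTools. The methods also name a removal of regions wider than 5 kb, in input peaks or blacklisted. The list still holds 16 regions over 5 kb (0 of them near the members), so it may precede that filter, and the counts and percentiles here include any such regions. The deposited file holds region positions only, with 0 columns of a single sample. No count, signal or depth was analysed here, and no groups were compared. Merging joins overlapping peaks of different libraries, so a width can exceed that of any single peak, and it depends on depth and on the number of libraries.

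Positions were written 1-based. Gene models were GENCODE M21 and bases came from GRCm38.p6, whose chromosome names and lengths were checked. An overlap of 1 bp counted. A gene's start site was that of its coding transcript with the best APPRIS tag, then the longest. Percentiles are over protein-coding genes or over regions of the same class. Python 3.11.15, NumPy 2.4.6, pandas 2.3.3 and pysam 0.24.0 were used, and the counting and motif steps were tested on simulated data. The named genes were all 10 members, other Polycomb genes without a start-site region or with the 3 widest, and neighbours whose start lay in a named region. Named regions were start-site regions, the widest, the nearest distal ones and those with a composite match. Any other region was picked with its value in view. The members and lists were chosen with earlier results of these data known. The alternatives changed reach, minimum width, joining, start site, distance limit, CpG limits and mismatches.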

Additional observations from a re-analysis of the deposited data

How the results depend on the processing

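Of 25 alternative values over 8 results, 17 stayed within the limits set for them, which were 1.5 times for counts, the 95% interval for shares and 1% for medians. The region count (177) was 143 with a reach of 10 kb, 264 with 50 kb and 144 without regions under 200 bp. The median percentile of the members' start-site widths (64.7) was 64.0 with regions less than 100 bp apart joined and 73.2 with the widest region at any coding start. The distal share (75.1%) was 84.7% against coding starts only and 65.5% with a limit of 2 kb, beside 88.9% and 76.9% of all regions. The median density (1.85 per 10 kb) was 1.59 with a reach of 50 kb and 1.52 without regions under 200 bp, beside all-gene medians of 1.02 and 0.866. Composite matches numbered 0 with 1 mismatch allowed and 9 with 3 allowed, beside 0.0915% and 6.66% of all regions. The members' share that was CpG-rich was 100% both over 300 bp at the start site and with the stricter limits, beside 77.3% and 39.1% of all start-site regions. No paired analysis was possible because positions alone were available, without values for single libraries, and for the same reason no replicate could be left out. Depth is unknown, so the number of weak regions that went uncalled was not tested.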

Other observations

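Of the 10 member regions that covered only start sites of other genes, 5 were as wide as the members' own start-site regions (903 bp or more) and 5 were narrower. These regions were picked out after their values were seen. The widest, 1355 bp at 35.82 kb downstream of the Pcgf6 start site, covered the divergent starts of Ina, which encodes a neuronal intermediate filament, and Nt5c2, a nucleotidase. Taf5, a subunit of the general transcription factor TFIID, had a region of 1342 bp, and Rnf34, 138.9 kb downstream of the Kdm2b start, one of 1289 bp. Plekhh3, near Ezh1, had one of 1254 bp. Upstream of Ring1, a region of 1015 bp covered the starts of Rxrb, a retinoid X receptor, and Slc39a7, a zinc transporter, with a GC content of 73.7%, above that of any member start-site region. The region over the Col11a2 start was narrow, at 218 bp.

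In 9 member regions (5.08%) at least 80% of the sequence was repeat-masked, and the share of such regions in the whole list was 7.78%. Such regions lay around Suz12, Ring1, Mtf2 and Jarid2, and the widest was the Suz12 region of 1371 bp with the octamer. The Kdm2b regions were unevenly placed, with 2.18 per 10 kb in the gene body and 1.00 per 10 kb in the flanks, whereas in Suz12 the values were 1.71 and 2.25.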
